A study of Rattus norvegicus with 4 samples.

Results

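The cytosolic ribosomal protein genes of aged rat tendon stem/progenitor cells were compared between cells treated with POG and cells given the solvent DMSO. A gene was counted as a member when its symbol began with Rps or Rpl followed by a number, began with Rplp, or was Rpsa or Fau, and the ribosomal S6 kinases were left out. This gave 62 genes of 7235 named genes on the array, 24 of the small and 38 of the large ribosomal subunit, each measured by 1 feature (a set of probes for 1 transcript cluster). Of the 80 proteins of the mammalian cytosolic ribosome, 58 were among the members. Rack1 is also a ribosomal protein but lies outside the naming rule, and the other 21 had no named feature and were not analysed here. The remaining 4 members, Rpl22l1, Rpl37l1, Rpl39l1 and Rps27l, are paralogs or entries named like them. The arrays came from rTSPCs (rat tendon stem/progenitor cells, colony-forming cells grown out of Achilles tendon) of 18-month-old rats. They were given DMSO (18M + DMSO, 2 arrays) or 20 μM POG (18M + POG, 2 arrays). The labels describe both treatments as running until passage 12, whereas the study's text gives a schedule of a few days for cells of aged rats, so the length of treatment was not settled. POG is prim-O-glucosylcimifugin, a chromone glycoside from the root of Saposhnikovia divaricata. The labels name no strain or genetic change, and how donor age and passage combine in these cultures was not settled either. Groups follow the treatment entry of each array, because the titles of the DMSO arrays name both treatments. Arrays of a group are labelled as biological replicates without an animal or culture being named. A p-value here reflects array-to-array spread, which may be technical and is pooled in part over all named genes.

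Ribosomal proteins and ribosomal RNA build the small subunit, which reads the mRNA, and the large subunit, which joins the amino acids. The subunits need 1 copy of nearly every protein, and the mRNAs of these proteins are among the most abundant of growing cells. Most of them start with a C followed by an unbroken run of pyrimidines, called the 5′ terminal oligopyrimidine (TOP) tract, through which mTORC1 and the RNA-binding protein LARP1 control how much of the mRNA is translated. An array that measures mRNA does not read how much of it is translated.

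To show this hallmark for the genes that the results turn on, 30 bases around the annotated transcript start are printed, 5′ to 3′ on the transcribed strand, with 10 bases before the start and 20 from the start on. Capitals mark an unbroken run of C and T that opens with C at the start itself and has at least 4 more pyrimidines. Rpl18 and Rpl36 were the members that passed the test, Rps18 had the highest estimate, Rpl28 had the brightest signal, Rps26 and Rpl10 carry the tract in both subunits, and Rps6 is the substrate of the S6 kinases.
Rpl18: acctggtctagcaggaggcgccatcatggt
Rpl36: cggccgccatcggaaagctgcaggtaagtc
Rps18: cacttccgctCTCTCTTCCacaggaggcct
Rpl28: cccctagtgtCTTTCTTTCCgtctccggcc
Rps26: ccgccgggtcCTCTTTCgagtcttggctcc
Rpl10: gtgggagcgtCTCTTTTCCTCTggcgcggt
Rps6: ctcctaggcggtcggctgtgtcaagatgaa

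The sequences are those of RefSeq on the rat assembly GRCr8. They lie at chr1:105325260-105325289 on the plus strand for Rpl18, chr9:1533770-1533799 on the plus strand for Rpl36, chr20:4933735-4933764 on the plus strand for Rps18 and chr1:78083513-78083542 on the minus strand for Rpl28. Those of Rps26, Rpl10 and Rps6 lie at chr7:1643385-1643414 on the minus strand, chrX:157205840-157205869 on the plus strand and chr5:106420521-106420550 on the minus strand. The start is the annotated one and was not measured in these cells. Of the 62 members, 52 had an entry in the RefSeq table. Such a tract stood at the annotated start of 18 of these 52 (34.6%), with a length of 5 to 12 bases, against 722 of 27457 genes of the table (2.63%). Runs of pyrimidines that opened with T were not counted. A C as the first base was found in 29 members (55.8%), against 24.2% of all genes. Neither Rpl18 nor Rpl36 had the tract at its annotated start.

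The 4 arrays correlated at 0.995 within 18M + DMSO, 0.994 within 18M + POG and 0.962 to 0.965 between the groups. The labelled cell type was checked with its markers. Col1a1, the main tendon collagen, was the brightest named gene, with a mean log2 signal of 19.3, while Scx, the tendon lineage transcription factor, read 5.84. In these marker counts, higher or lower means an adjusted p under 0.05 by limma, which 37.6% of all named genes reached. Of the 13 measured tendon markers 6 were higher and 2 lower in 18M + POG. The lower ones were Tnc and Thbs4, with log2 fold changes of -1.63 and -0.93. The mean signal of the tendon list was 12.8 to 12.9 in 18M + DMSO and 13.46 to 13.49 in 18M + POG. Of 5 mesenchymal surface markers 2 were higher and 1, Cd44, was lower. Of 5 pericyte and smooth muscle markers 3 were higher, among them Myh11, and the list's mean signal was 14.2 to 14.4 against 15.2 to 15.5. Both measured chondrocyte markers were higher, with a mean signal of 10.8 to 10.9 against 11.7. Of 4 measured genes of the haematopoietic list the signals were 5.17 to 8.67 and 1, Cd34, was higher, and the endothelial Kdr read 5.75. Markers of cell division were far apart between the groups. All 25 measured genes of that list were lower in 18M + POG, with a median log2 fold change of -3.35. Their mean signal was 11.8 to 11.9 in 18M + DMSO and 8.55 to 8.85 in 18M + POG. Mki67 was among them, at a log2 fold change of -4.1. For its protein Ki67 the study reports the other direction, a rise on staining of aged rTSPCs given POG. The reason for the difference between mRNA and staining was not tested. These shifts in the markers run alongside every result below, and their part in them was not tested. Fewer cells of a type and less RNA per cell cannot be told apart in bulk samples.

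The comparison asked whether the ribosomal protein mRNAs of aged rTSPCs differed after POG. Of the 62 members, 2 were lower in 18M + POG, Rpl18 and Rpl36, none was higher, and 60 did not pass (limma, adjusted p under 0.05 over all 7235 named genes). The share called was 3.23% of the members, and in the same fit it was 37.6% of all named genes, 17.2% lower and 20.4% higher. Both called members were also beyond 1.5-fold, as 34.6% of all genes were. Among the brightest 10% of genes, members included, 39.1% were called. The members' log2 fold changes (18M + POG over 18M + DMSO) had a median of -0.13 and ran from -0.74 to 0.36, with 42 below 0, 19 above 0 and Rps23 at 0. The median over all genes was 0.04, and their distribution was wider. The interquartile range was 0.30 for the members and 0.83 for all genes. For the 49 mitochondrial ribosomal protein genes it was 0.355.

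At an unadjusted p under 0.05, 7 members were lower and none was higher, where 21.7% of all genes were lower and 25.6% higher. Both 18M + POG arrays lay below both 18M + DMSO arrays in 26 members (background 32.7%) and above them in 6 (background 37.2%), and the groups overlapped in 30. Only Rpl18 and Rpl36 had an estimate beyond 1.5-fold (3.23% of members, 35.2% of all genes), and none was beyond 2-fold (14.6% of all genes). The standard errors of the members ran from 0.19 to 0.26 on the log2 scale. They draw in part on variance that limma shares over all named genes, whose lowest standard error was also 0.19. They are therefore not each member's own spread. The 95% interval lay within a 2-fold change either way for 60 members (96.8%), against 62.1% of all genes, and within a 1.5-fold change for 26. It reached a 1.5-fold decrease in 27 members and a 1.5-fold increase in 9, so smaller differences were not resolved for most members with 2 arrays per group.

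**Figure D1:**
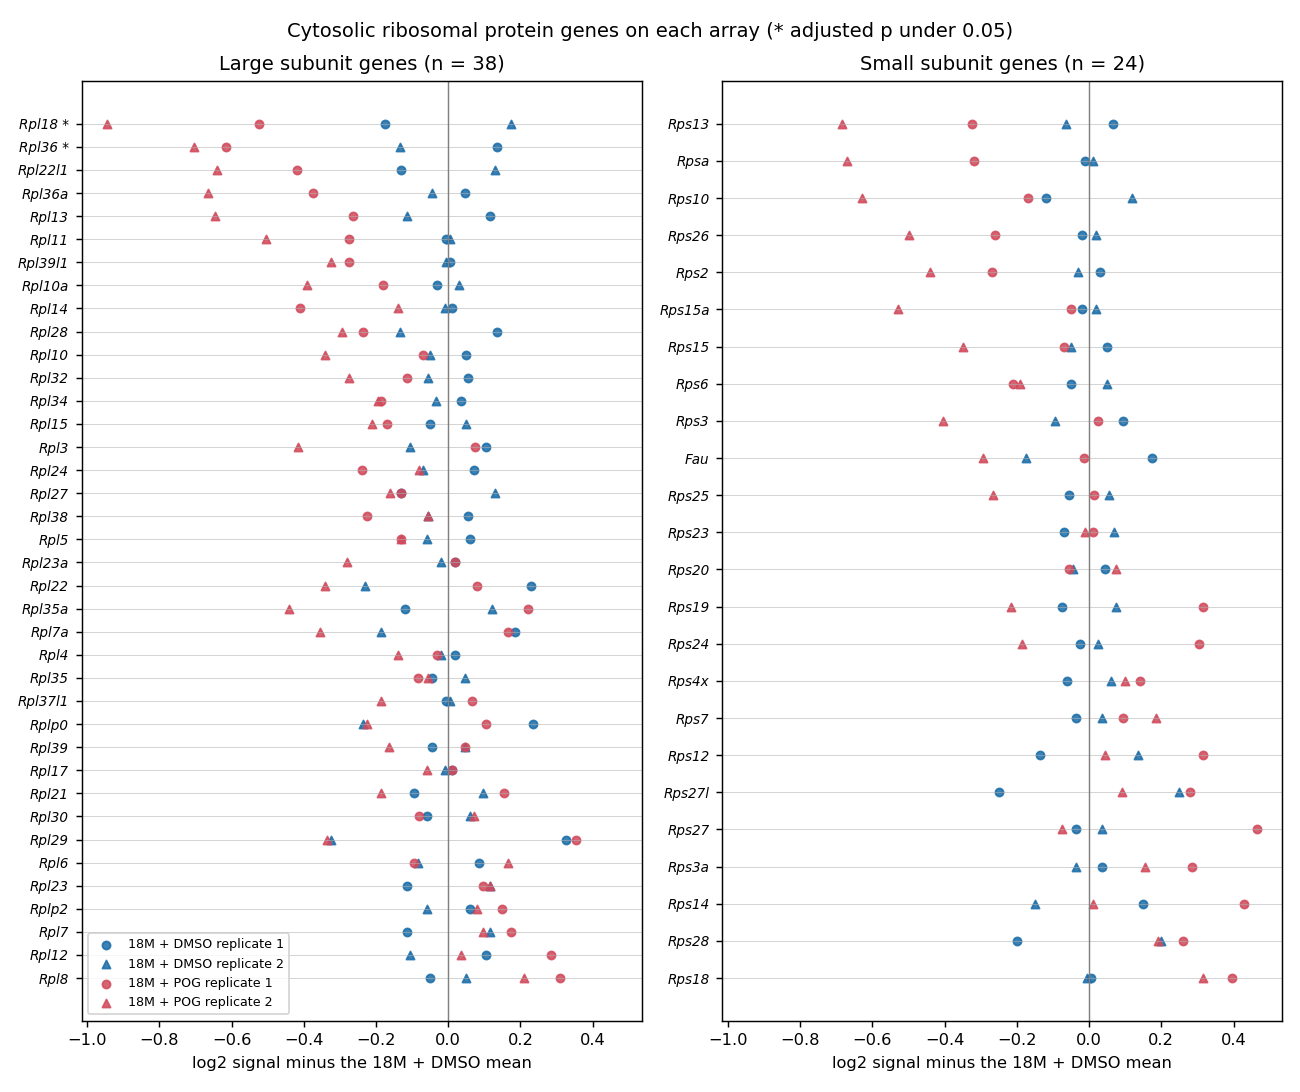
Log2 RMA signal of each of the 62 cytosolic ribosomal protein genes on each of the 4 arrays, shown as the difference from the gene's mean in 18M + DMSO, with large and small subunit genes in separate panels. Points are single arrays. Rpl18 and Rpl36 lie furthest below 0 in 18M + POG, and most other genes stay within 0.5 of it.

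**Figure D2:**
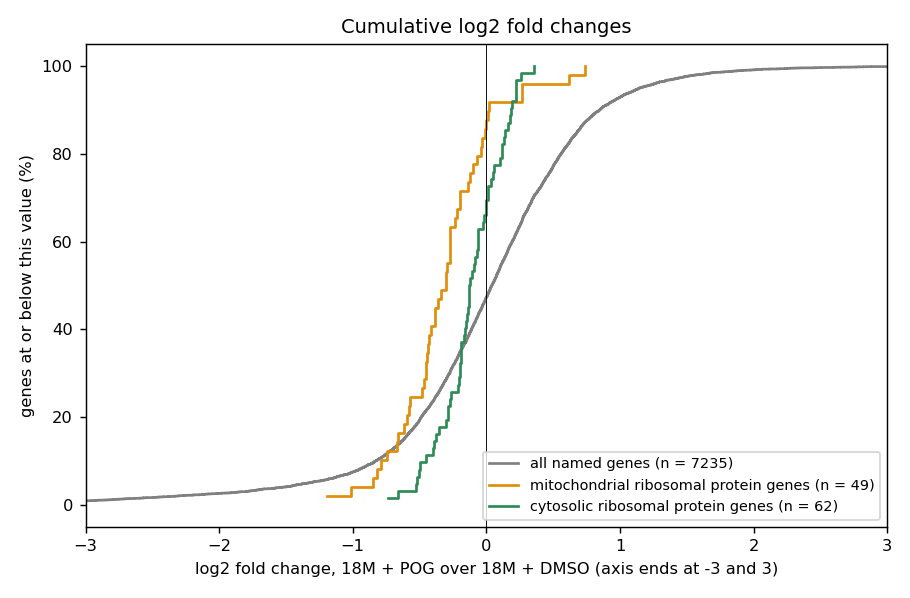
Cumulative share of genes (%) at or below each log2 fold change of 18M + POG over 18M + DMSO, for the 62 cytosolic ribosomal protein genes, 49 mitochondrial ribosomal protein genes and all 7235 named genes. The cytosolic curve is the steepest, with an interquartile range of 0.30 against 0.355 for the mitochondrial genes and 0.83 for all genes.

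Large subunit proteins had 2 of 38 members lower and none higher (background 17.2% lower and 20.4% higher). Their median log2 fold change was -0.13, with 31 estimates below 0 and 7 above. Rpl18 codes for eL18, a protein of the large subunit's surface. Its log2 signals were 14.19 and 14.54 in 18M + DMSO and 13.84 and 13.42 in 18M + POG, so both treated arrays lay below both controls. The mean fell from 14.37 ± 0.25 to 13.63 ± 0.30 (SD, n = 2), a log2 fold change of -0.74 (SE 0.22, 95% interval -1.20 to -0.27, adjusted p = 0.0163 by limma), or 1.66-fold lower. Rpl36 codes for eL36, another protein of the large subunit that bacteria lack. It read 16.56 and 16.29 in 18M + DMSO and 15.81 and 15.72 in 18M + POG, again without overlap. This was a log2 fold change of -0.66 (SE 0.20, 95% interval -1.09 to -0.23, adjusted p = 0.0180 by limma), or 1.58-fold lower. Neither gene passed in any of the 4 fits that left out 1 array, with adjusted p of 0.0606 to 0.198 for Rpl18 and 0.0628 to 0.166 for Rpl36, while both stayed below 0.

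Rpl5 and Rpl11 form the 5S particle with 5S ribosomal RNA, and in human and mouse cells they bind MDM2 and thereby stabilise p53 when ribosome assembly is disturbed. Rpl5 signals were 16.31 and 16.19 in 18M + DMSO and 16.12 in both 18M + POG arrays. Its log2 fold change was -0.13 (SE 0.19, adjusted p = 0.625 by limma). Rpl11 signals were 15.71 and 15.72 against 15.44 and 15.21. The difference of -0.39 (SE 0.20, 95% interval -0.81 to 0.03, adjusted p = 0.132 by limma) did not pass although the arrays did not overlap. With Rpl23, Rps7, Rps3 and the p53-induced paralog Rps27l, 6 of 7 listed proteins of this checkpoint were measured. None passed (background 37.6% called), and their median was -0.01, with a range of -0.39 to 0.19.

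The brightest large subunit members were also the brightest of the whole set. Rpl28, which codes for eL28, read 18.65 and 18.38 in 18M + DMSO and 18.28 and 18.22 in 18M + POG. Its difference of -0.27 (SE 0.20) had an adjusted p of 0.312 by limma. Rpl17, whose protein lines the tunnel through which the nascent chain leaves, read 17.82 and 17.80 against 17.82 and 17.75. The controls lay within the treated values, and the log2 fold change was -0.03 (SE 0.19, adjusted p = 0.932 by limma). Rpl4 contributes a long loop to the same tunnel. It read 17.69 and 17.65 against 17.64 and 17.53, a log2 fold change of -0.09 (SE 0.19, adjusted p = 0.757 by limma).

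The dimmest members were likewise of the large subunit. Rpl39l1, a gene whose RefSeq synonym is Rpl39l, read 6.48 and 6.47 in 18M + DMSO and 6.20 and 6.15 in 18M + POG. These signals did not overlap, and the difference of -0.30 (SE 0.19) had an adjusted p of 0.235 by limma. Rpl10a, the protein of the L1 stalk near the exit site for spent transfer RNA, read 9.74 and 9.80 against 9.59 and 9.38, with a log2 fold change of -0.29 (SE 0.20, adjusted p = 0.270 by limma). Rpl37l1, listed in RefSeq with the synonym Rpl37, read 10.35 and 10.36 against 10.42 and 10.17. The treated values lay on either side of the controls, at a log2 fold change of -0.06 (SE 0.20, adjusted p = 0.832 by limma).

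The P stalk recruits the elongation factors to the ribosome. Of its genes, Rplp0 read 15.67 and 15.20 in 18M + DMSO and 15.54 and 15.21 in 18M + POG, and Rplp2 read 16.33 and 16.21 against 16.42 and 16.35. The arrays of Rplp0 overlapped, at a log2 fold change of -0.06. Those of Rplp2 did not, but its difference of 0.12 did not pass (SE 0.19, adjusted p = 0.670 by limma). Rpl8, which sits at the peptidyl transferase centre, had the highest large subunit estimate and was singled out after its values were seen. It read 14.29 and 14.39 against 14.65 and 14.55, a log2 fold change of 0.26 (SE 0.19, adjusted p = 0.308 by limma).

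Small subunit proteins had no call among 24 members (background 37.6% called). Their median log2 fold change was 0.01 (0.005 before rounding), with 11 below 0, 12 above 0 and a range of -0.51 to 0.36. The median was 0.14 above that of the large subunit, a gap that shrank to 0.01 among the brightest 10% of genes and ran from 0.02 to 0.23 when single arrays were left out. It was not tested, since genes are not replicates. Rps6 is the protein whose phosphorylation by S6 kinases is the usual readout of mTORC1 activity. Its mRNA read 16.18 and 16.28 in 18M + DMSO and 16.02 and 16.04 in 18M + POG. The treated arrays lay below the controls, but the log2 fold change of -0.20 (SE 0.19, 95% interval -0.61 to 0.21) had an adjusted p of 0.436 by limma. The arrays say nothing of the phosphorylated protein.

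Rps13, Rpsa, Rps18 and Rps23 were singled out after their values were seen. Rps13, which helps form the bridge to the large subunit, read 13.05 and 12.92 against 12.66 and 12.30 (log2 fold change -0.51, adjusted p = 0.0649 by limma). Rpsa, which lies where the mRNA leaves the small subunit and was first described as a laminin receptor, read 15.00 and 15.02 against 14.69 and 14.34 (log2 fold change -0.50, adjusted p = 0.0672 by limma). In both, the lowest value was that of 18M + POG replicate 2. Rps18, at the head of the small subunit, read 12.54 and 12.53 against 12.93 and 12.85. This was the highest estimate of all members, at 0.36 (SE 0.19, adjusted p = 0.161 by limma), and Rps18 is a common reference gene for quantitative PCR. Rps23, whose protein lies at the decoding centre, read 14.62 and 14.76 against 14.70 and 14.68, with equal means in both groups. Fau, the only measured gene of the ribosomal proteins made as fusions with ubiquitin or a ubiquitin-like protein, had a log2 fold change of -0.16.

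Of the listed paralogs, 11 of 18 genes were measured and none passed (background 37.6% called), so no pair is given in full. Rpl22l1, which in mouse cells is repressed by its paralog Rpl22, came closest and was singled out after its values were seen. It read 11.63 and 11.89 in 18M + DMSO and 11.34 and 11.12 in 18M + POG, a log2 fold change of -0.53 (SE 0.20, adjusted p = 0.0518 by limma). Rpl22 itself read 15.79 and 15.33 against 15.64 and 15.22, and the groups overlapped. The difference between the paralogs was not tested. Rpl36a, on the X chromosome in rats and a relative of the autosomal Rpl36al, read 13.92 and 13.83 against 13.50 and 13.21 (log2 fold change -0.52, adjusted p = 0.0535 by limma). Rps27 and Rps27l had log2 fold changes of 0.20 and 0.19, with overlapping arrays in both. Probes of paralogs and of processed pseudogenes can bind each other's transcripts, and the tables do not show how far they do.

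Signal level set the members apart from other genes without a test, as a description. Their mean log2 signal ran from 6.33 to 18.4 with a median of 14.4, where the median named gene read 8.76, and 61 of 62 lay above that gene. In the brightest 10% of genes (log2 signal of 13.1 or more) lay 44 members (71.0%), in the brightest 5% 29, and in the brightest 1% 10. The arrays ended at 19.1 to 19.4, so even Rpl28 lay below their upper end. Signals of different probe sets are not on 1 scale of RNA amount, and the tables hold no saturation flag, so compression near the top could not be read from them directly.

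Other bright genes are set beside the members here, and whether compression had a part in the members' values was not tested. Of the 680 genes of the brightest 10% that were not members, 41.3% were called in the same fit, and their log2 fold changes had an interquartile range of 0.91. Members in the brightest 5% had a median of -0.13 and an interquartile range of 0.21, with 1 call in 29. Those below had a median of -0.13 (-0.125) and an interquartile range of 0.35, with 1 call in 33. Over the 62 members, which share the same 4 arrays, signal and log2 fold change had a Pearson r of 0.05, and signal and the size of the change had one of -0.15.

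**Figure D3:**
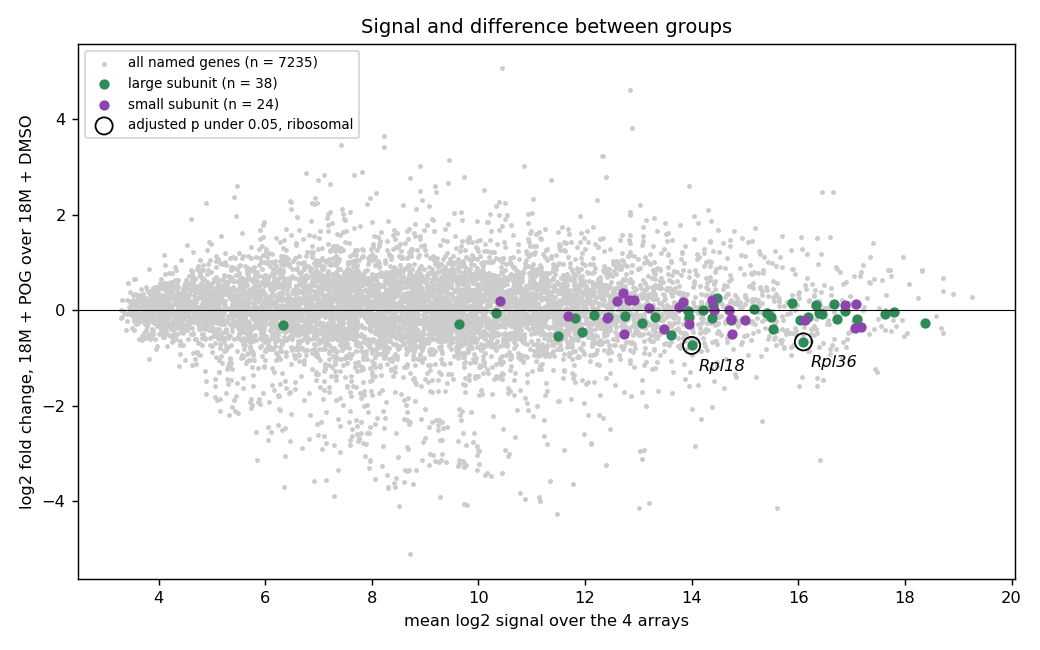
Log2 fold change of 18M + POG over 18M + DMSO against the mean log2 signal over the 4 arrays, for all 7235 named genes (grey), 38 large subunit genes (green) and 24 small subunit genes (purple), with the 2 called members circled. Most members form a narrow band at the bright end, while other genes of the same signal spread beyond 2-fold in both directions. A few members lie at lower signal, down to 6.33 for Rpl39l1.

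**Figure D4:**
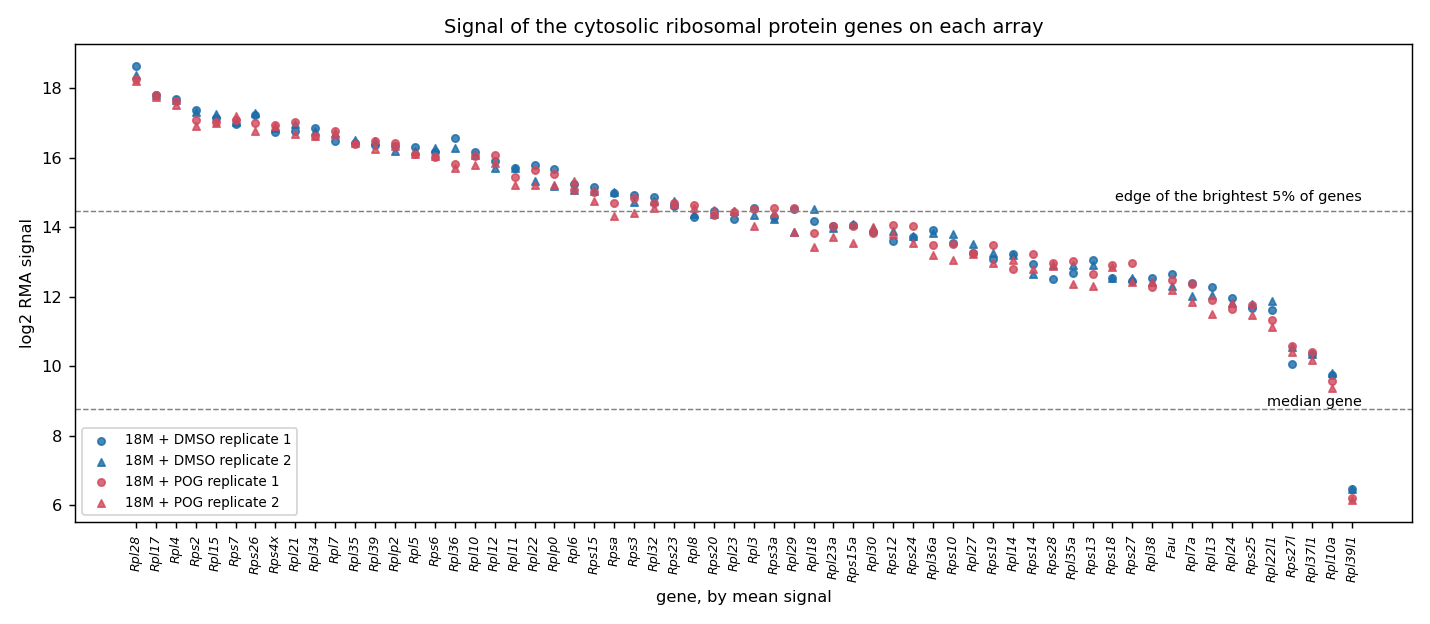
Log2 signal of each of the 62 cytosolic ribosomal protein genes on each of the 4 arrays, ordered by mean signal, with lines at the median named gene (8.76) and at the edge of the brightest 5% (14.5). The 4 arrays of a gene lie close together compared with the span from Rpl39l1 to Rpl28.

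The 18M + POG arrays differed from each other in these genes. Replicate 2 lay below replicate 1 in 51 of 62 members (82.3%), against 46.0% of all genes, and the median difference was -0.21 against 0.03. Within 18M + DMSO, replicate 2 was below replicate 1 in 32 members (51.6%), with a median difference of -0.01. Replicate 2 of 18M + POG was the lowest of the 4 arrays in 38 members (61.3%, against 22.3% of all genes). The mean signal over the members was 14.39 and 14.37 in 18M + DMSO and 14.36 and 14.16 in 18M + POG. Set against the control mean, replicate 1 had a median difference of -0.02 with 32 members below 0, and replicate 2 one of -0.19 with 46 below 0. Without replicate 2 the members' median log2 fold change was -0.02, with 32 below 0. Replicate 2 was below replicate 1 in 30 of 38 large and 21 of 24 small subunit genes. The same held for 22 of 49 mitochondrial ribosomal protein genes (44.9%) and for 47.9% of the other genes in the brightest 10%. What set the array apart in the members was not tested.

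**Figure D5:**
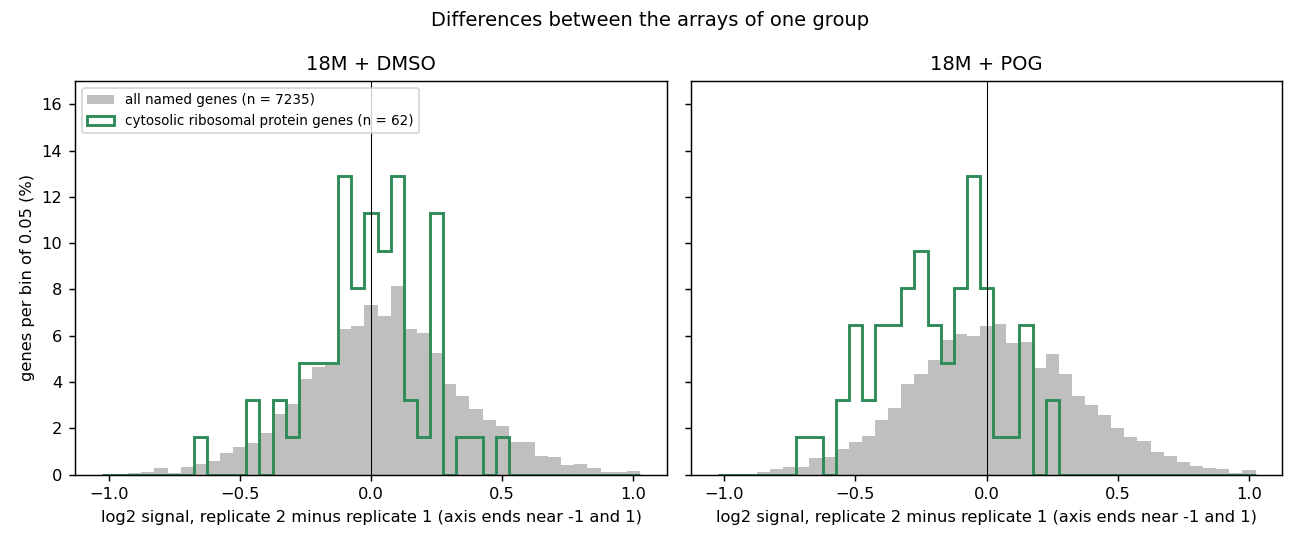
Distribution of replicate 2 minus replicate 1 (log2 signal) within 18M + DMSO and within 18M + POG, as the percentage of genes per bin, for the 62 cytosolic ribosomal protein genes and all 7235 named genes. In 18M + POG the members are shifted to the left, with a median of -0.21, while in 18M + DMSO their median is -0.01.

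Individual members also varied between arrays without regard to treatment. Rpl29, singled out after its values were seen, read 14.53 and 13.88 in 18M + DMSO and 14.56 and 13.87 in 18M + POG. Its spread within a group was the widest of the members (SD 0.46 and 0.49), while the group means differed by 0.01. The replicate 1 arrays were also the higher ones in both groups for Rpl22 and Rplp0. The median within-group SD was 0.140 for the members and 0.175 for all genes.

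The start region was then set beside the changes, as a description. The 18 members with a tract at the annotated start had a median log2 fold change of -0.09 and a range of -0.38 to 0.36, with no call. The 34 without it had a median of -0.15 and a range of -0.74 to 0.23, with 2 calls. Among all named genes 37.6% were called. Some of the 34 had a run that opened with T, such as Rps23 (19 bases) and Rps24 (9), so the split depends on the annotated first base. In the 300 bases from 250 before the start to 50 after it, the letters CTTCCG (the core bound by ETS-family factors such as GABP), on either strand, occurred in 29 of 52 members (55.8%) and in 17.4% of all genes. They overlapped the tract in 2 members. The medians were -0.19 with and -0.11 without these letters. AAGATGGC, the letters of the YY1 motif, on either strand, occurred in 5 members (9.62%) and 3.44% of all genes, and never overlapped CTTCCG. A match of letters describes the sequence and is not a measured binding site.

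Ribosomal proteins are carried to the nucleus and into the ribosome by dedicated partners. Of 22 listed chaperones and importers 11 were measured, 4 were lower, none was higher, and the median log2 fold change was -0.24. The 4 of 11 called compare with 37.6% of all named genes called either way and 17.2% called lower. All 11 estimates were below 0, from -1.16 to -0.005. The list was not tested as a set. Grwd1, a histone-binding protein that as its yeast counterpart Rrb1 chaperones Rpl3, read 7.71 and 7.68 in 18M + DMSO and 6.59 and 6.48 in 18M + POG (log2 fold change -1.16, SE 0.19, adjusted p = 0.000305 by limma). Its cargo Rpl3 read 14.57 and 14.36 against 14.54 and 14.05, and those arrays overlapped. Btf3, the beta subunit of the nascent polypeptide-associated complex that binds new chains at the tunnel exit, fell by 0.77 (adjusted p = 0.00684 by limma). The import receptor Ipo9 fell by 0.75 (adjusted p = 0.00897 by limma) and the histone chaperone Nap1l4 by 0.67 (adjusted p = 0.0149 by limma).

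The mRNAs of several translation factors bear the same kind of start as those of ribosomal proteins. Of 26 listed genes 16 were measured, 4 were lower, 1 was higher, and the median was -0.14. The 5 calls of 16 compare with 37.6% of all named genes. Hnrnpa1, an RNA-binding splicing regulator, read 14.91 and 14.88 in 18M + DMSO and 13.09 and 13.59 in 18M + POG, a log2 fold change of -1.56 (SE 0.21, adjusted p = 5.62e-05 by limma). Eef1d, an exchange factor of translation elongation, fell by 0.92 (adjusted p = 0.00305 by limma). Btf3, also on this list, and the nucleolar chaperone Npm1, which fell by 0.74 (adjusted p = 0.00970 by limma), were the other lower genes. Eif4b, the cofactor of the initiation helicase, rose by 0.67 (adjusted p = 0.0140 by limma). For Rack1, the small subunit protein outside the naming rule, the estimate was -0.20 and the adjusted p 0.459 by limma.

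Of 33 listed regulators of TOP mRNA translation and of S6 phosphorylation 16 were measured. Larp1, Mtor and Rptor were among those not measured. Of the 16 measured, 2 were higher, 2 lower and 12 did not pass, and the median was -0.14. The 4 calls were a smaller share than the 37.6% of all named genes. Ddit4 (REDD1), a stress-induced inhibitor of mTORC1, read 5.38 and 5.89 in 18M + DMSO and 8.22 and 8.49 in 18M + POG, a log2 fold change of 2.72 (SE 0.22, adjusted p = 2.83e-07 by limma). Sesn2, which holds mTORC1 inactive when leucine is scarce, rose by 1.03 (adjusted p = 0.00208 by limma). Myc, a transcription factor that activates ribosome biogenesis genes, read 10.02 in both 18M + DMSO arrays and 9.36 and 9.19 in 18M + POG, and fell by 0.75 (adjusted p = 0.00805 by limma). Eif4ebp2, a repressor of cap-dependent initiation, fell by 0.61 (adjusted p = 0.0421 by limma). The S6 kinase gene Rps6kb1 had an estimate of 0.50 (adjusted p = 0.0707 by limma) and Rps6kb2 one of -0.13 (adjusted p = 0.667), so neither passed.

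Of 19 listed genes of ribosome rescue, recycling and hibernation 11 were measured, 4 were lower and 2 higher (background 37.6% called), with a median of -0.45. Gtpbp2, a GTPase that resolves stalled ribosomes in mouse neurons, rose by 0.97 (adjusted p = 0.00534 by limma), and Riok3, an atypical kinase tied to the small subunit, rose by 0.88 (adjusted p = 0.00294 by limma). Usp10, which removes ubiquitin from small subunit proteins of stalled ribosomes in human cells, fell by 0.73 (adjusted p = 0.0194 by limma). Ifrd2, which occupies inactive ribosomes in rabbit reticulocytes, fell by 0.71 (adjusted p = 0.0125 by limma).

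The mitochondrial ribosome is made of other proteins, encoded by the Mrps and Mrpl genes. Of its 49 measured genes 12 were lower and 1 was higher (26.5% called, against 37.6% of all named genes, 17.2% lower), with a median log2 fold change of -0.30 and a range of -1.20 to 0.74. Against these, the cytosolic members had 2 of 62 called and a median of -0.13. The interquartile range was 0.355 for the mitochondrial and 0.30 for the cytosolic genes. The mitochondrial genes were dimmer, with a median log2 signal of 8.43, and the difference between the families was not tested.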

How the data were processed

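RNA of 4 samples was hybridised to Affymetrix Rat Transcriptome Array 1.0 arrays. The authors deposited log2 signals, made by robust multichip analysis (RMA) with default settings and global scaling; the software version and annotation build are not given in the sources used here. Another deposited table was identical in 10141 of 10141 features. Of these, 7240 had 1 gene symbol and 2901 none; the brightest feature was kept per gene. The group comparison used the lmFit and eBayes functions of limma 3.58.1 under R 4.3.3 (no block, Benjamini-Hochberg over 7235 genes, threshold 0.05) and the code was tested on simulated data. The methods' t-test and other alternatives are given at the end. With 2 against 2, an exact permutation test cannot go below 0.333. Members and gene lists were chosen with earlier results of these data known. Named in full were called members, Rps6, Rpl5, Rpl11, the 3 brightest and the 3 dimmest, and up to 4 called genes per list. The number of arrays limits the precision.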

Additional observations from a re-analysis of the deposited data

How the results depend on the processing

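The number of lower members, 2, became 5 after quantile normalization (36.8% of all genes called, against 37.6%), 4 without the dimmest 25% of genes (43.9%), 7 of 44 in a fit of the brightest 10% of genes alone (55.5%) and 10 with an intensity trend in the variance prior (40.4%). It was 1 without members among the brightest 5%. The methods' t-test is paired with a fold change over 1.5. With both conditions the number was 1 unadjusted (Rpl36, where 21.7% of all genes passed) and 0 after Benjamini-Hochberg. Fits without single arrays leave 1 array in a group, and their medians are given below. With the replicate block the number of lower members was 5 (40.9% of all genes). The labels tie the replicate numbers to no animal, and the replicate differences of the groups correlated at 0.15 over genes, so the numbers were not taken as pairs. No member was higher in any of these fits (at most 1 unadjusted).

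The members' median, -0.13, was -0.16 after quantile normalization, -0.08 after median centring of each array and -0.19 to -0.02 when single arrays were left out, at its smallest (-0.0225) without 18M + POG replicate 2. The difference between small and large subunit medians, 0.14 (0.135), was 0.0125 among the brightest 10% and 0.015 to 0.2275 when single arrays were left out. Rpl17 turned to 0.025 after median centring and ran from -0.06 without 18M + POG replicate 1 to 0.01 without 18M + POG replicate 2. Rpl37l1 turned to 0.065 without 18M + POG replicate 2. Rpl11 passed at adjusted p = 0.0324 in the limma fit of the brightest 10% and at 0.0240 with the trend. For the members named by rule, 126 of 139 values kept their direction and their side of the threshold. Many of these estimates could not have moved, so the tally does not measure stability. The other deposited table was identical and each member had 1 feature, which fixed the estimate under those settings. The block, the trend and refits on other sets of genes changed only the standard errors and adjusted p. The cause of the differences between settings was not tested.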
